A study of Trametes versicolor with 17 samples.

Results

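The 191 genes described here are those of the white-rot fungus Trametes versicolor that stood higher in every library exposed to a waste-derived aqueous phase than in every unexposed library after 3 days. They were taken from 14296 gene models by their CPM (the count of a gene divided by the total count of its library, times 1e6). The lowest CPM over the 9 exposed 3-day libraries had to be at least 1.5 times the highest CPM of the 3 controls. The mean had to reach 5 CPM under each phase, and at least 1 count was needed in the 7-day libraries. Of the 7014 models that met the last 2 conditions, 191 (2.72%) also met the first. Because the rise over the 3-day controls chose the genes, it is described and not tested.

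The libraries came from mycelial pellets with the genotype label ASM 8036, grown at 28 °C in medium of 2% malt extract, either plain or carrying 5% of the water fraction that hydrothermal liquefaction leaves. In the main batch, 3 control libraries and 3 each for FW, SD and AB were made after 3 days (72 h). FW stands for the phase from food waste, SD for that from waste salad dressing and AB for that from waste algal biomass. In the preliminary batch, 3 AB libraries and 2 controls were made after 7 days. By its title, the study looks for broadly stress-responsive genes that could be used to engineer tolerance.

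Hydrothermal liquefaction heats wet biomass under pressure to make an oil. Its water fraction is rich in small organic acids, phenols and nitrogen compounds that slow microbial growth. White-rot fungi degrade lignin with secreted oxidases and peroxidases, and take up and modify many aromatic compounds inside the cell with mono-oxygenases, reductases, conjugating enzymes and membrane pumps. A general stress response in fungi draws on such detoxifying enzymes together with chaperones and antioxidant proteins. The gene table used here gives locus tags for 188 of the 191 members and a functional gene symbol for none, so members are described by tag, position and level, and no role is assigned to them.

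Total counts ran from 15459249 to 18770043 per 3-day library and from 27654678 to 35223283 per 7-day library. At 3 days the least covered member in the controls, TRAVEDRAFT_60089, had 27 counts over the 3 controls. At 7 days some values were near the floor, where 3 counts equal 0.0852 to 0.1085 CPM. Some libraries stood apart. The SD libraries had scaling factors (edgeR's TMM method) of 1.07 to 1.12, against 0.930 to 1.00 in the other 3-day libraries, so that CPM on plain totals places SD slightly high. The 7-day controls had factors of 1.24 and 0.861. Control replicate 2 held the highest control value for 103 of the 191 members and control replicate 3 the lowest for 102, and AB replicate 2 was the lowest 7-day AB library for 107. The libraries are titled as biological replicates; nothing further says whether they were separate cultures, so a p-value reflects only how these libraries scatter.

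Together the members took a small part of the mRNA in control pellets and several times more under every phase. They held 0.450%, 0.489% and 0.431% of all counts in the 3 controls, 1.26%, 1.60% and 1.19% under SD, 2.59%, 2.77% and 2.64% under FW, and 4.61%, 4.86% and 4.61% under AB. The median member stood at 9.40 CPM in the controls, 26.6 CPM under SD, 46.2 CPM under FW and 66.7 CPM under AB. The ratio of the mean to the control mean had a median of 2.64 under SD (range 1.61 to 41.0), 4.14 under FW (1.74 to 70.5) and 5.92 under AB (1.59 to 222). In bulk libraries fewer cells of a kind and less RNA per cell cannot be told apart, and the same holds for increases.

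**Figure D1:**
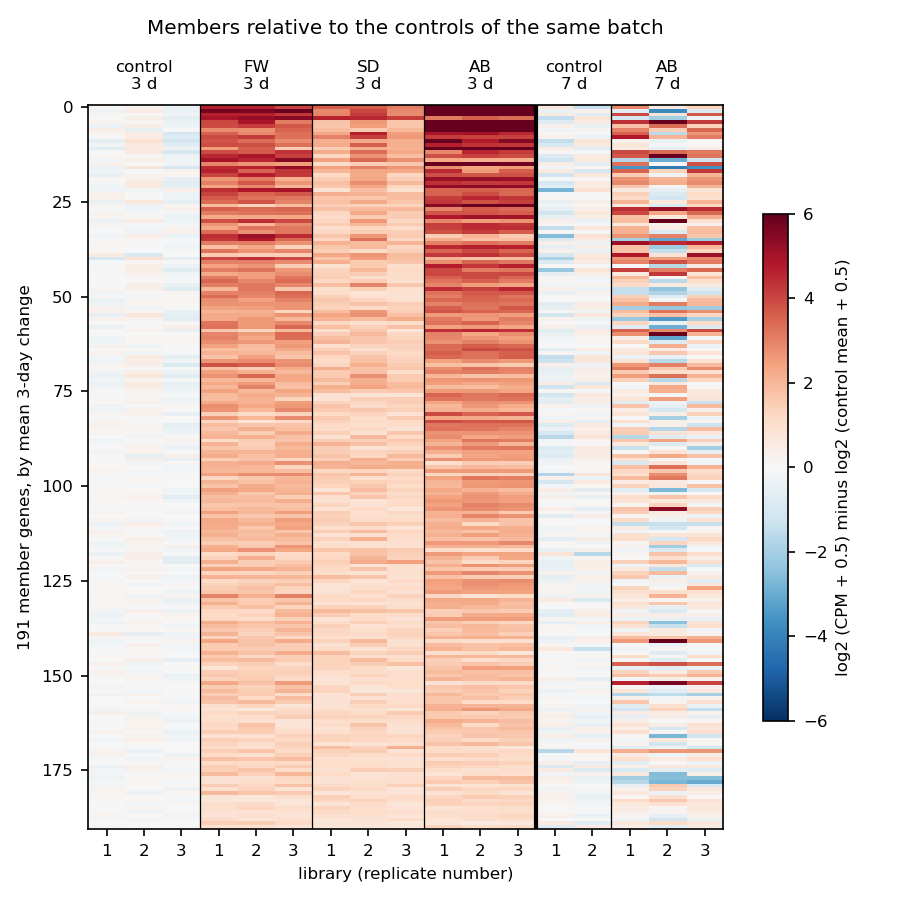
Each row is 1 of the 191 members and each column 1 of the 17 libraries, grouped by condition. Colour is log2 (CPM + 0.5) minus log2 (mean CPM of the controls of the same batch + 0.5), with colours saturated at -6 and 6; red covers all 9 exposed 3-day libraries by the choice of genes, is palest under SD, and turns mixed in the 3 AB libraries at 7 days.

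The ratio of lowest exposed to highest control value had a median of 1.80, reached 2 in 64 members, 3 in 15 and 5 in 4. Just inside the limit were TRAVEDRAFT_29164 (15.3 against 10.2 CPM), TRAVEDRAFT_26828 (16.3 against 10.8, 1.51) and TRAVEDRAFT_67999 (12.3 against 8.15, 1.51). Just outside were TRAVEDRAFT_168153 (141 against 94.2 CPM), TRAVEDRAFT_113954 (17.4 against 11.7, 1.49) and TRAVEDRAFT_47566 (7.996 against 5.37, 1.49). An SD library was the lowest of the 9 exposed libraries for 151 members, an FW library for 22 and an AB library for 18. The set held 363 genes without control replicate 2, though leaving out any library can only ease the ratio condition.

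The widest gap between exposed and control libraries was that of TRAVEDRAFT_60089 (scaffold 9, 2095074 to 2095973, 3 exons), with a ratio of 9.94. Its controls were at 0.551, 0.841 and 0.219 CPM, FW at 30.1, 39.0 and 44.5, SD at 24.9, 23.2 and 17.9 and AB at 8.36, 12.01 and 10.2 CPM. It was scarce in the controls, with 27 counts over all 3, the fewest of any member, so its ratio rests on few control reads. It ran from FW over SD down to AB, without overlap between the phases. FW exceeded SD (log2 difference 0.96 with SE 0.24 and adjusted p = 0.0106) and SD exceeded AB (log2 difference 0.93 with SE 0.24 and adjusted p = 0.00548), from edgeR's quasi-likelihood test with Benjamini-Hochberg adjustment over all 10838 genes tested. The libraries behind these and all later p-values between phases also chose the genes. Such p-values therefore describe the chosen genes and are no independent test. At 7 days the AB libraries of TRAVEDRAFT_60089, at 0.710, 0.0723 and 1.59 CPM, overlapped with the controls at 0.349 and 3.45 CPM.

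TRAVEDRAFT_29546 (scaffold 7, 1014378 to 1015822) had a ratio of 7.79 and the largest ratio of AB mean to control mean in the set. It was at 3.58, 4.01 and 2.30 CPM in the controls, 97.3, 92.7 and 63.5 under FW, 47.3, 47.3 and 31.2 under SD and 846, 662 and 690.4 CPM under AB. The AB mean was 222 times the control mean, where FW and SD gave 25.6 and 12.7. AB stood above FW (FW minus AB log2 difference -3.13 with SE 0.22 and adjusted p = 1.41e-07), and the 3 AB libraries lay clear of all others. TRAVEDRAFT_160456 (scaffold 2, 506009 to 507088, ratio 5.64) paired FW and AB instead. Its controls were at 1.98, 3.88 and 1.86 CPM, FW at 163, 155 and 185, AB at 200.0, 216 and 205 and SD at 21.9, 48.2 and 21.9 CPM. FW and AB were both far above SD, by log2 differences of 2.63 and 2.94, and the call between FW and AB was not made (FW minus AB log2 difference -0.31 with SE 0.27 and adjusted p = 0.391).

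Of the others with a large gap, TRAVEDRAFT_131483 (scaffold 10, 1181343 to 1183817, 14 exons, ratio 4.53) was at 6.44, 9.12 and 3.56 CPM in the controls, 107, 126 and 67.9 under FW, 54.6, 118 and 41.4 under SD and 124, 119 and 114 CPM under AB. Among the SD libraries, replicate 2 alone reached the AB level. TRAVEDRAFT_72308 (scaffold 6, 2409365 to 2411822, 14 exons, ratio 3.60) was at 7.88, 9.51 and 10.9 CPM in the controls, 251, 116 and 193 under FW, 39.1, 48.9 and 47.2 under SD and 231, 57.0 and 124 CPM under AB, with the AB libraries far apart. TRAVEDRAFT_171842 (scaffold 9, 1526842 to 1528127, ratio 3.68) was an FW gene above all, at 127, 95.6 and 184 CPM there against 3.03, 4.59 and 2.85 in the controls, 21.0, 43.3 and 25.9 under SD and 19.0, 17.7 and 16.9 CPM under AB. The remaining 2 of the 8 with the largest ratio, TRAVEDRAFT_30442 (6.42) and TRAVEDRAFT_50182 (3.72), lie in 1 region of scaffold 9 and are described with it.

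**Figure D2:**
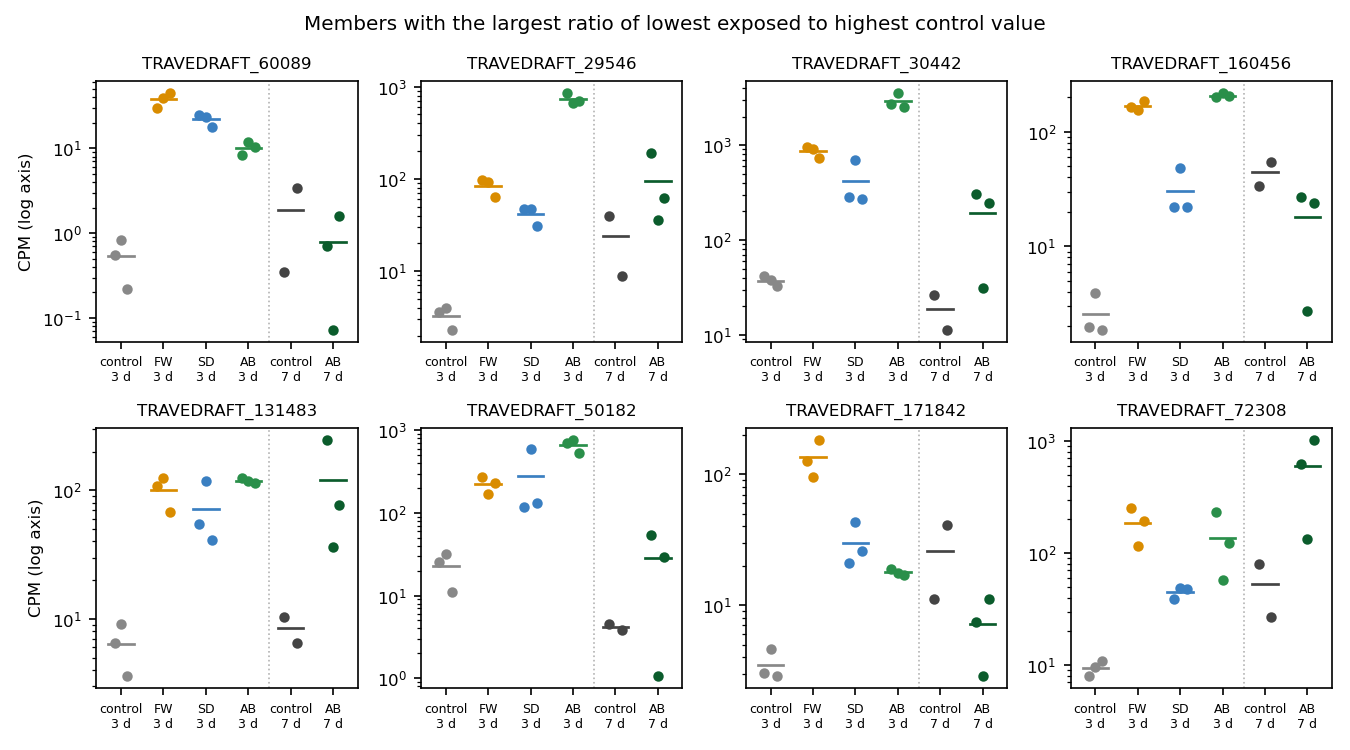
Points are single libraries and bars group means, in CPM on a log axis, for the 8 members with the largest ratio of lowest exposed to highest control CPM, whose ratios run from 9.94 (TRAVEDRAFT_60089) to 3.60 (TRAVEDRAFT_72308). A dotted line parts the 3-day from the 7-day batch; all exposed 3-day points lie above the 3-day controls, while at 7 days AB overlaps with or lies below the controls in several panels.

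A few members supplied a large share of the counts. The 8 with the highest mean CPM over the exposed libraries made up 27.8% of the members' counts in the controls, 31.7% under SD, 35.7% under FW and 47.3% under AB. TRAVEDRAFT_37921 (scaffold 7, 993766 to 995851) went from 145, 165 and 96.2 CPM in the controls to 865, 1184 and 623 under FW, 396, 673 and 374 under SD and 4899, 5128 and 4793 CPM under AB. TRAVEDRAFT_150580 (scaffold 7, 2418647 to 2420319) followed the same order, at 171, 169 and 116, then 727, 744 and 756, 337, 433 and 433 and 4330.3, 5185 and 4788 CPM. Under AB the replicates of both lay close together and stood well above FW there (FW minus AB log2 difference -2.49 with SE 0.26 and adjusted p = 6.94e-06 and log2 difference -2.69 with SE 0.16 and adjusted p = 3.45e-08).

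TRAVEDRAFT_166243 (scaffold 5, 8809 to 10774) had its highest values under FW, at 2579.6, 4085 and 2872 CPM, with 2234, 2097 and 2162 under AB, 347, 712 and 371 under SD and 114, 181 and 166 CPM in the controls. FW and AB did not overlap, but the difference was not called (FW minus AB log2 difference 0.55 with SE 0.26 and adjusted p = 0.111). TRAVEDRAFT_164970 (scaffold 4, 904927 to 907300) also stood at like levels under FW (1262 ± 78.0 CPM) and AB (1169.7 ± 269.7), with 414 ± 31.7 under SD and 113 ± 22.9 in the controls (mean ± SD, n = 3). TRAVEDRAFT_149223 (scaffold 6, 2099762 to 2102036) ranged from 186 ± 21.9 CPM in the controls over 337 ± 24.8 and 785 ± 80.9 to 1933 ± 194 CPM under AB. TRAVEDRAFT_152398 (scaffold 9, 1276292 to 1278746) was the only one of these 8 with AB as its lowest phase, at 597 ± 44.0 CPM against 809 ± 296 under SD, 1256 ± 277 under FW and 288 ± 50.2 in the controls. Per length of the gene model (CPM per kilobase), the highest mean levels over the exposed libraries were those of TRAVEDRAFT_30445 (3293) and TRAVEDRAFT_30442 (2951), 2 short genes of the region on scaffold 9, ahead of TRAVEDRAFT_150580 (1359).

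The phases were then set beside each other. The 9 exposed libraries had chosen the genes, and an SD library set the floor of the rule for most of them. The counts and p-values between phases are therefore a description of the chosen genes. Nothing particular to these genes is read from the order. Over all 10838 tested genes the log2 fold changes against the controls already spread most narrowly under SD and most widely under AB, with quartiles of -0.30 and 0.34 under SD, -0.49 and 0.49 under FW and -0.75 and 0.66 under AB. The shares over all tested genes given here as background are not restricted to genes that rose under every phase.

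Between FW and SD, 126 of 191 members were called higher under FW at an adjusted p of 0.05 (background 13.3%) and 0 lower (background 12.1%). At an unadjusted p of 0.05, 3 members were lower under FW in edgeR (background 19%), and DESeq2 called 0 (background 13.5%). The median log2 difference was 0.80 for the members and -0.01 for all genes tested. With a minimum of 2-fold, 77 members were called higher under FW than SD (background 5.91%) and 0 lower (background 3.72%). Between SD and AB, 141 members were called lower under SD (background 25.9%) and 4 higher (background 28.3%), with a median of -1.20 against 0.05. Between FW and AB, 85 members were called lower under FW (background 20.2%) and 25 higher (background 21.9%), with a median of -0.35 against 0.01.

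FW was called above AB in some members and below it in others, and many had no call between them. AB was called above both other phases in 83 members (background 15.7%), FW in 22 (background 4.14%) and SD in 0 (background 8.61%). SD was called below both others in 103 members (background 8.74%) and AB in 3 (background 17%). No call between any of the phases was made for 21 members (background 34.7%).

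**Figure D3:**
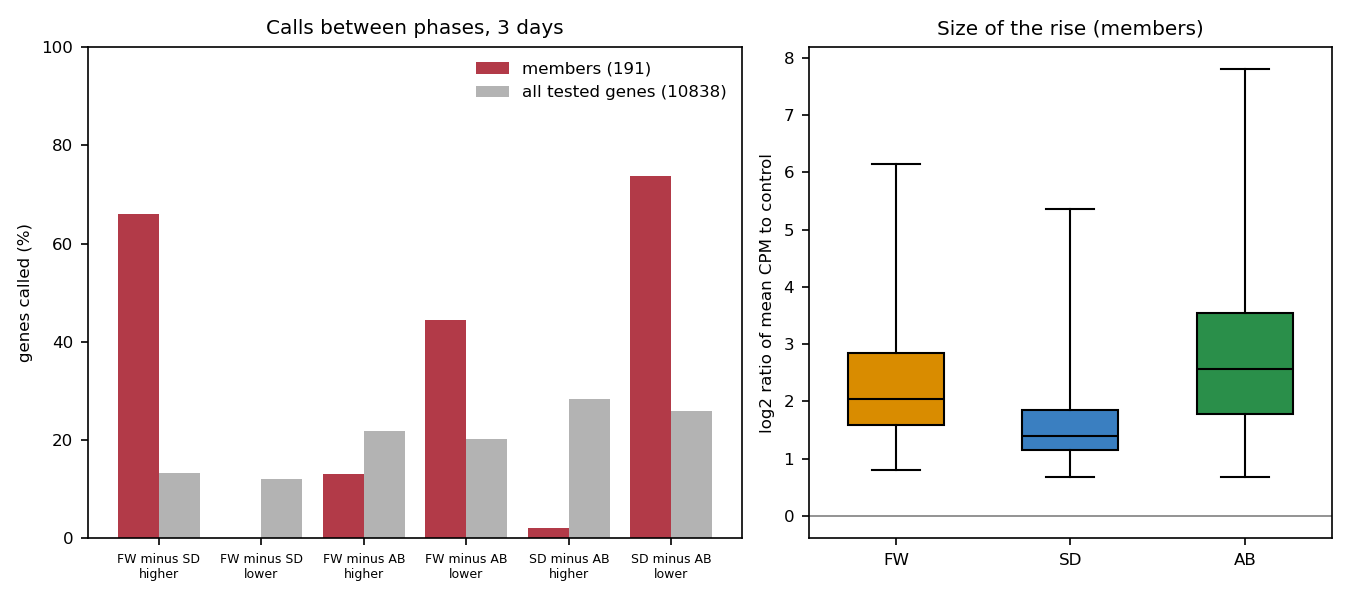
Left, bars give the percentage of the 191 members and of all 10838 tested genes called in each direction between the phases at 3 days, from the libraries that also chose the members; FW above SD holds 66.0% of the members and AB above SD 73.8%. Right, boxes give the median and quartiles, and whiskers the full range, of the members' log2 ratio of mean CPM to the control mean under each phase, with medians lowest under SD.

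Members were ranked for a phase by the smaller of its log2 differences from the other phases. Because these differences chose the genes named here, the p-values printed with them are a description. For AB, TRAVEDRAFT_173910 (scaffold 12, 261596 to 264262) came first by the smaller difference. It was at 6.33, 4.14 and 5.87 CPM in the controls, 21.4, 15.1 and 21.7 under FW and 15.8, 15.2 and 14.5 under SD, and at 263, 420.3 and 337 CPM under AB (FW minus AB log2 difference -4.13 with SE 0.22 and adjusted p = 1.57e-08). TRAVEDRAFT_147588 (scaffold 5, 1591304 to 1592856) went from 9.10 ± 2.96 CPM in the controls over 33.0 ± 4.75 under SD and 80.2 ± 23.6 under FW to 1132 ± 215 CPM under AB (SD minus AB log2 difference -5.28 with SE 0.30 and adjusted p = 2.07e-08). TRAVEDRAFT_141682 (scaffold 2, 2039686 to 2040610) was at 685, 696 and 673 CPM under AB, tightly grouped, but spread from 27.7 to 119 CPM under FW (FW minus AB log2 difference -3.37 with SE 0.45 and adjusted p = 6.06e-05).

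For FW, TRAVEDRAFT_170938 (scaffold 8, 2263033 to 2266658) came first by the same measure. It was at 208, 354 and 219.6 CPM under FW, 30.4, 59.6 and 28.7 under SD, 27.2, 40.9 and 27.4 under AB and 8.04, 12.9 and 6.91 CPM in the controls. FW exceeded SD (log2 difference 2.90 with SE 0.32 and adjusted p = 7.19e-05) and AB (log2 difference 3.02 with SE 0.32 and adjusted p = 8.27e-06), while SD and AB overlapped. TRAVEDRAFT_171842 (FW minus SD log2 difference 2.36 with SE 0.29 and adjusted p = 0.000129) and TRAVEDRAFT_46310 (scaffold 4, 3202837 to 3204642; FW minus AB log2 difference 2.27 with SE 0.36 and adjusted p = 0.000225) followed, each given with its smaller difference.

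At the other end were members with nearly the same level under all phases. TRAVEDRAFT_26828 (scaffold 2, 3861211 to 3863530) had controls at 9.36, 10.8 and 8.94 CPM and phases at 21.8, 16.4 and 19.9 (FW), 16.3, 17.9 and 21.7 (SD) and 17.6, 20.7 and 20.8 CPM (AB). TRAVEDRAFT_72104 (scaffold 6, 1456589 to 1458265) had a control mean of 2.35 ± 0.598 CPM and phase means of 6.82 ± 0.791, 6.28 ± 0.417 and 6.64 ± 0.934. TRAVEDRAFT_161310 (scaffold 2, 2470072 to 2473591) had 13.9 ± 2.76, and 32.7 ± 5.42, 32.5 ± 2.40 and 36.6 ± 4.14 CPM. In each of these the exposed libraries of all phases overlapped with one another.

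The 7-day libraries, which entered the choice only through the minimum of 1 count, allow a test of AB that is independent of it. All 191 members passed the filter on low counts of that test. Most leaned the same way as at 3 days, but few were called. The log2 fold change was positive in 148 of 191 members (77.5%), against 49.7% of the 10192 genes tested, with a median of 0.77 against -0.01. All 3 AB libraries lay above both controls in 74 members (38.7%, background 13.8%) and below both in 17 (8.90%, background 20.6%), and the groups overlapped in 100. On TMM-scaled CPM the counts were 78 (background 17.7%) and 15 (background 20.7%). The background of these overlap counts is all 11623 models with 7-day counts, without the condition on level that the members met. In edgeR's quasi-likelihood test 8 members were called higher (4.19%, background 0.873%) and 2 lower (1.05%, background 2.40%). At an unadjusted p of 0.05 these counts were 62 (background 9.89%) and 11 (background 11.2%).

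The counts of calls rested on single libraries. Leaving out a control leaves 1 control that is assumed to vary like the AB group. Without control replicate 1, 1 member was called higher (background 0.0386%) and 0 lower (background 0.715%), and without control replicate 2 no gene of the whole table was called. Without AB replicate 2 the counts were 31 higher (background 3.14%) and 4 lower (background 3.70%). DESeq2 called 47 members higher (background 6.72%) and 9 lower (background 6.62%). The median stayed positive without each library in turn, between 0.57 and 1.31.

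The smallest adjusted p among the 7-day rises was that of TRAVEDRAFT_62503 (scaffold 1, 5034558 to 5036850). The controls were at 3.78 and 2.23 CPM and AB at 122, 76.4 and 91.4 CPM (log2 difference 5.13 with SE 0.40 and adjusted p = 0.00871). At 3 days the same gene was at 10.7, 8.99 and 8.88 CPM in the controls, 83.9, 83.1 and 63.4 under FW, 42.0, 37.2 and 40.1 under SD and 80.9, 96.2 and 83.5 CPM under AB. Leaving out control replicate 2 ended its 7-day call (adjusted p = 0.0743).

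TRAVEDRAFT_31162 (scaffold 11, 446859 to 447873) had the largest fold change of the called members, from 1.02 and 1.44 to 43.3, 89.6 and 28.1 CPM (log2 difference 5.49 with SE 0.78 and adjusted p = 0.0245). TRAVEDRAFT_164970 rose from 24.0 and 46.0 to 777, 1326 and 787 CPM (log2 difference 4.77 with SE 0.71 and adjusted p = 0.0276). TRAVEDRAFT_22573 (scaffold 10, 130075 to 131448) rose from 0.857 and 1.10 to 16.7, 20.6 and 14.7 CPM (log2 difference 4.19 with SE 0.47 and adjusted p = 0.0144). That gene was one of the members with no call between the phases at 3 days, at 12.6 ± 1.69, 14.7 ± 2.50 and 14.9 ± 1.34 CPM under FW, SD and AB against 4.71 ± 0.960 in the controls. TRAVEDRAFT_133129 (scaffold 12, 995071 to 996585) rose from 5.96 and 5.33 to 95.0, 63.0 and 52.2 CPM (log2 difference 3.70 with SE 0.43 and adjusted p = 0.0151). The calls of these 4 genes were lost when either control was left out, and that of TRAVEDRAFT_164970 also with replicate number added to the fit. The other members called higher, chosen for naming after their values were seen, were TRAVEDRAFT_29909, TRAVEDRAFT_49658 and TRAVEDRAFT_134996, with log2 fold changes of 3.04, 2.91 and 1.92.

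Both members called lower at 7 days had been above the controls in all 9 exposed libraries at 3 days, as the rule required of every member. TRAVEDRAFT_46310 (14 exons) fell under AB, from control values of 14.2 and 17.5 CPM down to 0.957, 0.362 and 0.823 CPM (log2 difference -4.44 with SE 0.51 and adjusted p = 0.0151). At 3 days its controls were at 2.04, 5.11 and 1.10 CPM and its AB libraries at 21.8, 16.1 and 18.6 CPM. The model gene_8849 (scaffold 8, 1569127 to 1569795), which matched no locus tag, fell from 3.97 and 2.13 to 0.339, 0.108 and 0.114 CPM (log2 difference -3.86 with SE 0.62 and adjusted p = 0.0352), where at 3 days it had gone from 9.63 ± 1.62 to 32.8 ± 7.57 CPM. For gene_8849 the values of AB replicates 2 and 3 were near the floor, as 3 counts equal 0.1085 and 0.0852 CPM there. The 7-day calls of TRAVEDRAFT_46310 and gene_8849 were lost when either control was left out, and with replicate number added to the fit. That of gene_8849 was also lost without AB replicate 3 (adjusted p = 0.0882).

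Some members lay far above the 7-day controls without a call, and others overlapped with them. TRAVEDRAFT_37921 was at 879 and 979 CPM in the controls and 6078, 3791 and 5739 CPM under AB (log2 difference 2.52 with SE 0.56 and adjusted p = 0.0726), a separation of the groups in every library. TRAVEDRAFT_67999 (scaffold 1, 1297232 to 1299467), at the limit of the rule at 3 days, was at 22.6 and 54.0 and 472, 276 and 601 CPM (log2 difference 3.49 with SE 0.70 and adjusted p = 0.0568). TRAVEDRAFT_149223 was high in both groups, at 829.6 and 2900.4 CPM in the controls and 2305, 1779 and 2931 CPM under AB, with overlap.

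**Figure D4:**
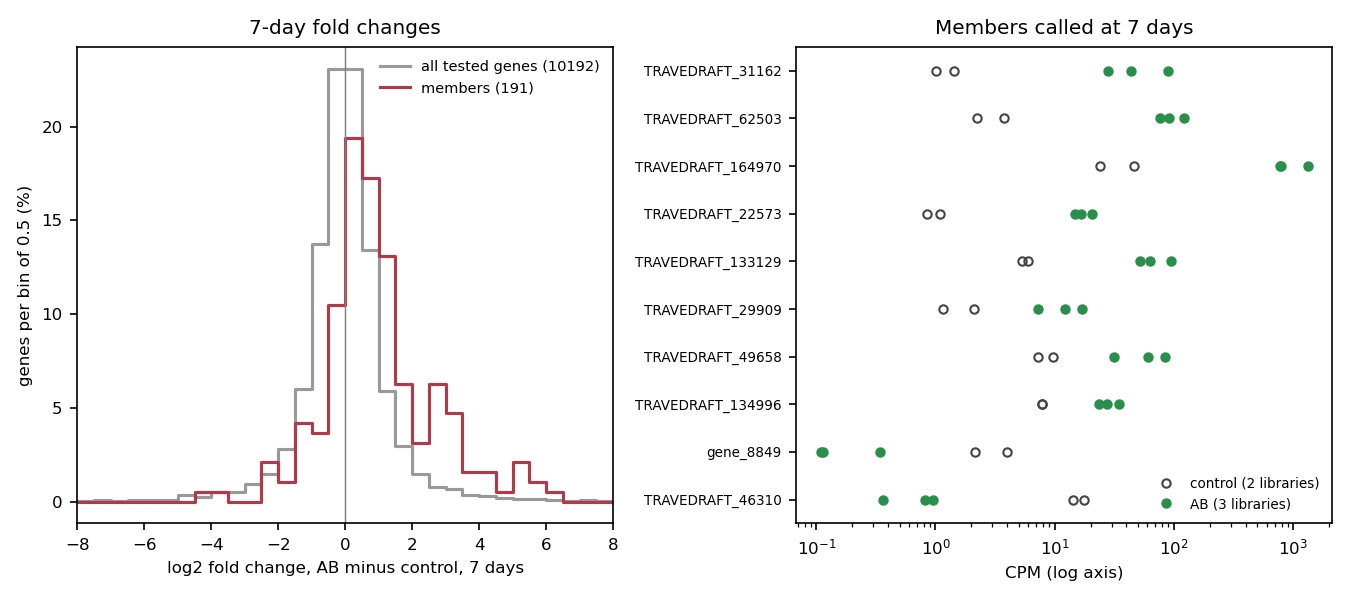
Left, the distribution of log2 fold changes (AB minus control, 7 days, bins of 0.5) for the 191 members, median 0.77, and for all 10192 tested genes, median -0.01, drawn from -8 to 8. Right, CPM on a log axis in each 7-day library for the 10 called members; open circles are the 2 controls, filled circles the 3 AB libraries, and the groups do not overlap in any row.

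The members were spread over 17 of the 236 scaffolds, with 24 on scaffold 3, 21 on scaffold 1 and 17 each on scaffolds 6 and 7. Scaffold 17 held 5, which is 4.35% of its gene models against 1.34% over all scaffolds. Their models were of ordinary build. The median length was 1431 bases and the median number of exons 5, against 1495 bases and 6 exons among the 7014 models that met the conditions on level, and 1169 bases and 4 exons over all models. Single-exon models made up 3.14% of the members and 2.62% of those 7014. Overlap with another model affected 7 members, in 5 cases on the opposite strand, where reads may be shared if the counting took no account of strand. Direct neighbours in gene order made up 7 pairs (14 members, 7.33%), with 4 pairs on 1 strand, 2 divergent and 1 convergent, and no run was longer than a pair.

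The densest group lay on scaffold 9, where 4 of 5 consecutive models within 8.99 kb (811066 to 820055) were members. TRAVEDRAFT_30442 (811066 to 811651) was at 41.7, 37.6 and 32.5 CPM in the controls, 947, 914 and 723 under FW, 283, 702 and 268 under SD and 2729.6, 3510.2 and 2541 CPM under AB. TRAVEDRAFT_50182 (817685 to 818127) was at 25.7, 31.5 and 11.2, 269.6, 169 and 232, 117, 599 and 132 and 695, 767 and 533 CPM in the same order. In both, SD replicate 2 was more than 2-fold above the other SD libraries. TRAVEDRAFT_30445 (819406 to 820055) was at 291, 106 and 196 CPM in the controls, 591, 526 and 525 under FW, 991, 1223 and 749.5 under SD and 3803, 4086 and 3212 CPM under AB.

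The region was highest under AB, except for its scarcest member. AB exceeded FW by log2 differences of 1.78, 1.58 and 2.76 in TRAVEDRAFT_30442, TRAVEDRAFT_50182 and TRAVEDRAFT_30445 (adjusted p = 0.000321, 0.0257 and 6.84e-06), though the call for TRAVEDRAFT_50182 was lost without 5 of the libraries in turn (adjusted p 0.0509 to 0.0883). The divergent neighbour TRAVEDRAFT_129010 (813180 to 813684) stayed low, at 1.67 ± 0.568 CPM in the controls and 13.9 ± 1.09, 5.49 ± 1.52 and 12.8 ± 1.97 CPM under FW, SD and AB. TRAVEDRAFT_73514 (814575 to 815805), the model between them that was no member, had a ratio of 1.09 and was at 10.8 ± 2.60, 17.4 ± 2.47, 26.2 ± 10.3 and 173 ± 37.1 CPM in the controls and under FW, SD and AB. At 7 days no member of the region was called, and in all 5 models AB replicate 2 was the lowest AB library. For TRAVEDRAFT_30445 the AB libraries were at 1060.1, 63.6 and 1348 CPM and the controls at 18.5 and 55.6 CPM (log2 difference 4.38 with SE 1.42 and adjusted p = 0.155).

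**Figure D5:**
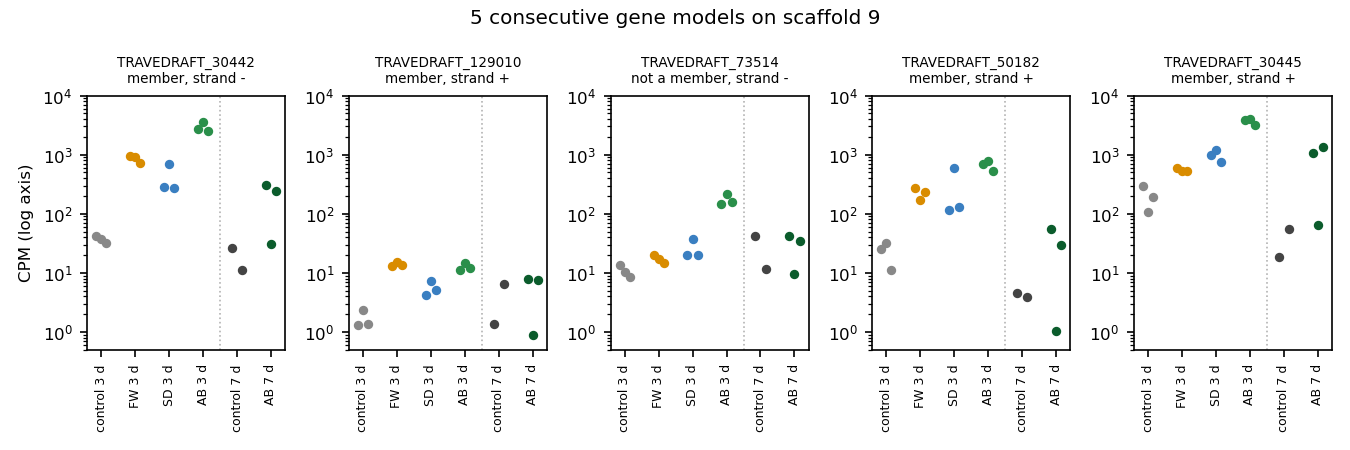
CPM in every library, on 1 shared log scale, for 5 consecutive gene models on scaffold 9 in gene order, with the 3-day groups left and the 7-day groups right of the dotted line. The 4 members rise above the 3-day controls in each exposed library, by the choice of genes, and AB replicate 2 is the lowest 7-day AB library in all 5 panels.

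None of the 42 gene models with a functional symbol was a member, and 17 of them met the conditions on level. Over all 7014 models that met these conditions the share of members was 2.72%, so nothing is read from its absence among 17. Among the 42, only MnP13, a manganese peroxidase, had a ratio above the limit (2.04), and it failed on level with 3.45 CPM under SD and 1.68 CPM under AB. MnP1s came next with a ratio of 1.32, as its lowest SD library was at 7.76 CPM and its highest control at 5.89 CPM. Against the 7-day controls 0 of 8 tested manganese peroxidases and 0 of 8 lignin peroxidases were called in either direction by edgeR. Both versatile peroxidases tested and 3 of 8 laccases and multicopper oxidases were called lower there, and none higher. Of the other symbol genes, 0 of 3 heme-thiolate peroxidases and 0 of 1 tested dye-decolorizing peroxidase were called. Among LDO1, LDO2 and CCP1, 1 of 3 was called lower and 0 higher. Over all tested genes 2.40% were called lower and 0.873% higher. The lists are small and the calls rest on 2 controls, so nothing is read from these counts.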

How the data were processed

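RNA of 17 libraries was counted by the authors. What they deposited is the raw count of reads for each gene model. Per the submitters' processing notes, HISAT2 and featureCounts were among the tools. Their versions, the build, the strand setting and the handling of multi-mapping reads were not given in the sources used here. Reads of near-identical gene copies could be split between them. Per the labels' protocols, 200 ng of total RNA went into each polyA library.

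Coordinates are those of the count tables. Locus tags were taken from RefSeq (assembly Trametes versicolor v1.0) for the 14214 of 14296 models whose start and end were identical there. No genome, promoter or protein sequence was used here, so the planned sequence motifs and the lists by product description were not analysed, and the lists by gene symbol were.

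CPM used plain library totals, and levels are mean ± SD. Comparisons used the two-sided quasi-likelihood test of edgeR 4.0.16 (R 4.3.3), after TMM scaling and edgeR's own low-count filter, in 1 fit of the 12 main libraries (10838 genes, 8 residual degrees of freedom) and 1 of the 5 preliminary libraries (10192 genes, 3 residual degrees of freedom), the batches apart. P-values were adjusted by Benjamini-Hochberg over all genes of a contrast, and a gene was called at 0.05. SEs were back-computed from the F statistic. The biological coefficient of variation was 0.188 and 0.455. The code was tested on simulated data. Alternatives were RLE scaling, DESeq2 1.42.0, no filter, a 2-fold minimum, a replicate block, other limits of the rule and each library left out; the medians under them and TMM-scaled CPM for the 7-day overlap were added after seeing the data. Members and lists were chosen with earlier results of these data known. Named members were those with the 8 largest ratios, the 8 highest mean CPM, the 5 largest called changes each way at 7 days, the 3 largest preferences for each phase (by the smaller difference from the other phases), the 3 steadiest, and those at the limit.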

Additional observations from a re-analysis of the deposited data

Results flagged for a closer look

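On CPM from plain totals, 5 of the 30 named members lay above the 3-day controls in all 3 AB libraries and below both 7-day controls in all 3 AB libraries. The 3-day part held for every member by the rule, and some of the 30 were named for their 7-day falls. Of all 191 members 8.90% lay below both 7-day controls in this way, and of all models with 7-day counts 20.6%. On TMM-scaled CPM only 2 of the 5, TRAVEDRAFT_46310 and gene_8849, lay below both 7-day controls, and TRAVEDRAFT_160456, TRAVEDRAFT_171842 and TRAVEDRAFT_26828 overlapped with them. The difference between the times was not tested, since the 3-day rise chose the genes, and time and batch cannot be told apart. The 7-day log2 fold changes were -4.44 for TRAVEDRAFT_46310, -3.86 for gene_8849, -1.96 for TRAVEDRAFT_171842, -1.33 for TRAVEDRAFT_160456 and -0.53 for TRAVEDRAFT_26828, and the first 2 of them were called. For TRAVEDRAFT_160456 the AB libraries were at 200.0, 216 and 205 CPM at 3 days and 27.2, 2.71 and 23.9 CPM at 7 days, and the controls at 1.98, 3.88 and 1.86 and then 33.9 and 54.4 CPM. On plain totals TRAVEDRAFT_171842 had 7-day controls of 11.1 and 40.9 CPM and AB libraries of 7.50, 2.89 and 11.1 CPM.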

How the results depend on the processing

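The rule gave 191 genes, 137 on TMM-scaled CPM (134 of them members), 159 at a mean of 10 CPM, 64 at a ratio of 2, and 193 to 363 without 1 library, the most without control replicate 2. Leaving out a library can only ease the ratio condition, so a rise in the count was built into that setting. At 7 days, 8 members were called higher and 2 lower; DESeq2 gave 47 and 9, the replicate block 5 (0.451% of all tested genes) and 0 (0.442%), and leaving out 1 library 0 to 31 and 0 to 4, while RLE scaling, no filter and a 2-fold minimum gave 8 and 2. The median 7-day log2 fold change of 0.77 ranged from 0.57 to 1.31 without 1 library. Between phases, a 2-fold minimum gave 77 members higher under FW than SD (5.91% of all tested genes), 50 lower (7.97%) and 17 higher (12.6%) under FW than AB, and 0 higher under SD than AB (15.9%). Leaving out 1 library gave 106 to 132 higher and 0 to 1 lower for FW against SD (median 0.78 to 0.89), 22 to 28 and 70 to 87 for FW against AB (median -0.38 to -0.32), and 2 to 4 and 132 to 146 for SD against AB (median -1.25 to -1.16). The replicate block gave a median of 0.81 for FW against SD and made no 7-day call for TRAVEDRAFT_164970, TRAVEDRAFT_46310 and gene_8849 (adjusted p = 0.0549, 0.0622 and 0.180). Of 1039 recomputed calls of named members, 981 remained calls in the same direction, 58 were lost and 0 reversed. Losses under the 2-fold minimum were differences of less than 2-fold, with the adjusted p unchanged. The cause of the other losses was not tested. Most of the recomputed calls were calls between phases, for which some of the genes had been named. Every named 7-day call was lost in at least 1 setting, from 1 for TRAVEDRAFT_62503 to 4 for gene_8849. Deviations of same-numbered libraries from the group means correlated between -0.17 and 0.39 over 18 pairs at 3 days (mean 0.06). Over 36 differently numbered pairs the range was -0.40 to 0.32 (mean -0.03). Among control, FW and SD, replicate 2 libraries correlated at 0.28 to 0.39 and replicate 3 at 0.18 to 0.25. Replicate 1 libraries there were at -0.17 to 0.07, and same-numbered pairs with AB at -0.14 to 0.13. Whether equal numbers mark a shared origin was not tested. The 2 pairs at 7 days were at -0.22 and -0.19, where the deviations of the 2 controls mirror each other. With 2 controls at 7 days and a coefficient of variation of 0.455, that batch limits what can be called.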

Other observations

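The members' control levels differed between the batches, which were counted in separate tables and in which time and batch cannot be told apart. Both 7-day controls lay above all 3-day controls in 106 of 191 members (55.5%) and below them all in 36 (18.8%). Over the 7014 models that met the conditions on level, these shares were 22.0% and 42.9%. The rule chose members by 3-day control values that were low beside the exposed ones, and the 7014 models were not so chosen. Nothing particular to the members is therefore read from the difference in shares. The median member was at 9.40 CPM in the 3-day and 20.1 CPM in the 7-day controls, and the members held 1.15% and 1.82% of the counts of the 7-day controls, against 0.431% to 0.489% at 3 days. TRAVEDRAFT_149223 is an example, with 176, 211 and 171 CPM in the 3-day and 829.6 and 2900.4 CPM in the 7-day controls. TRAVEDRAFT_173910 had 6.33, 4.14 and 5.87 and 119 and 144 CPM.

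A looser group of members lay on scaffold 8 (1566943 to 1596694), with 4 members among 8 models, including the only 3 members that matched no locus tag. The divergent pair gene_8848 and gene_8849 was at 21.0 ± 4.13 and 9.63 ± 1.62 CPM in the 3-day controls and at 89.1 ± 23.2 and 32.8 ± 7.57 CPM under AB. TRAVEDRAFT_73179, at the far end, went from 11.2, 13.1 and 12.1 CPM to 102, 104 and 91.0 under FW, 44.4 ± 10.2 (mean ± SD, n = 3) under SD and 87.0, 142 and 112 CPM under AB, and at 7 days from 4.92 and 13.4 to 75.3, 142 and 84.3 CPM (adjusted p = 0.0632). Between them TRAVEDRAFT_127518 had a ratio of 1.51 but was listed at 0 in all 5 of the 7-day libraries, which kept it out of the set.

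TRAVEDRAFT_152398 had very unequal 7-day replicates, at 73.3 and 117 CPM in the controls and 564, 12728 and 585 CPM under AB (log2 fold change 5.66, adjusted p = 0.163). The members held 5.01% of the counts of AB replicate 2 with this gene and 3.74% without it, against 3.07% and 3.19% without it in the other AB libraries.

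The pair TRAVEDRAFT_157166 and TRAVEDRAFT_67659 on scaffold 17 (119410 to 123260), on facing strands, was at 6.31 ± 2.97 and 43.7 ± 2.83 CPM in the 3-day controls. Under FW, SD and AB the first was at 87.7 ± 17.7, 48.1 ± 31.4 and 147 ± 22.9 CPM and the other at 135 ± 20.5, 91.4 ± 15.6 and 245 ± 42.2 CPM. On scaffold 2 (2978548 to 2985496) the tandem pair TRAVEDRAFT_56390 and TRAVEDRAFT_56391 was at 65.6 ± 7.34 and 126 ± 2.52 CPM in the controls and at 168 ± 30.4 and 831 ± 185 CPM under AB. At 7 days TRAVEDRAFT_56391 was at 48.3 and 82.9 CPM in the controls and 451, 7707 and 279.5 CPM under AB (log2 difference 5.47 with SE 1.86 and adjusted p = 0.167).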
